A study of Homo sapiens with 34 samples.

Results

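Intergenic long noncoding RNAs (lincRNAs) are transcripts that lie between protein-coding genes and are not known to be translated. The lincRNAs described here were chosen by their mean RNA-seq level: they are the rows of the deposited RNA-seq table with the gene type lincRNA, a position on chromosomes 1 to 22 and a mean of at least 1 RPKM over the 12 RNA-seq libraries, where RPKM is a read count divided by gene length and by library size. Widely studied names (such as MALAT1, NEAT1 and the SNHG family) were not taken, which left out 10 rows. The rule kept 299 of 28071 listed genes, and 284 of them were also among the 25035 genes of the deposited table of RNA immunoprecipitation (RIP). The rule used the mean level over all groups and no difference between groups, so levels are given as a description, and a lincRNA that was high in a single group can have entered through that group. Just outside the limit lay GHET1 (0.988 RPKM), AC069513.4 (0.993 RPKM) and RP11-44N11.2 (0.994 RPKM), and just inside it lay RP11-465B22.8 (1.001 RPKM), RP5-933K21.3 (1.002 RPKM) and RP11-443B7.1 (1.002 RPKM).

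All libraries came from LNCaP cells, a long established line of human prostate cancer. Androgen-dependent cells (AD) were grown in RPMI1640, and androgen-independent cells (AI) in the same medium with charcoal-stripped serum, from which steroids have been removed, so growth type and medium cannot be told apart. RNA-seq of polyadenylated RNA had 2 libraries for each of 3 states of AD and of AI cells: left untreated, collected 24 h after a mock siRNA (NC), and collected 24 h after an siRNA against EZH2 (siEZH2). EZH2 places the repressive histone mark H3K27me3, as the catalytic subunit of Polycomb repressive complex 2 (PRC2). RIP used an antibody to EZH2 or control IgG in AD and AI cells after ultraviolet crosslinking, with 2 libraries each, and 7 chromatin immunoprecipitation (ChIP) peak lists covered H3K27me3 (2 AD, 2 AI) and EZH2 (2 AD, 1 AI). The labels do not say that replicates were separate cultures, so p-values measure only the spread between these libraries, which may be technical. The protocol in the labels names LNCaP/abl as the transfected cells, although libraries titled AD also carry siRNA names, and the titles were followed.

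The cells carried the markers of luminal prostate epithelium, with KLK3, which encodes prostate-specific antigen, between 1290 and 5060 RPKM. The defining markers of blood (PTPRC, CD3E, CD68), stroma (COL1A2, DCN) and basal epithelium (KRT5, TP63) reached at most 0.06 RPKM in any RNA-seq library, while VWF reached 3.53, COL1A1 2.81 and KRT14 4.56 RPKM. The untreated libraries stood apart from the transfected ones: mitochondrially encoded genes held 18.4 to 33.4% of the summed RPKM in the 4 untreated libraries and 2.1 to 4.07% in the 8 transfected ones. Whether untreated and transfected cells were handled together is not stated, so transfection and experiment cannot be told apart, and the part of this difference in the results was not tested. EZH2 itself stood at 10.95 and 12.48 RPKM in the AD mock libraries and at 11.52 and 10.73 RPKM in those labelled AD siEZH2, a log2 difference of -0.07 (limma adjusted p = 1). In AI cells it stood at 7.07 and 5.44 RPKM after mock and at 3.6 and 4.33 RPKM in the libraries labelled siEZH2, a log2 difference of -0.59 (limma adjusted p = 0.126). Neither difference passed the test, so EZH2 gives no check of the siEZH2 labels in AD cells, and these libraries are called by their labels.

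As background, lincRNAs are mostly spliced and polyadenylated like messenger RNAs, but are on average less abundant and more restricted to particular cell types. Some act as RNA molecules, as decoys, scaffolds or guides of protein complexes. Others are hosts, whose introns or exons hold microRNAs or small nucleolar RNAs (snoRNAs), and many are divergent transcripts (DT), which start beside the promoter of a coding gene and run the other way. PRC2 has been reported to bind many lincRNAs, and how specific that binding is remains debated.

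The lincRNAs were scarce RNAs beside the coding genes of the same libraries. Their mean levels ran from 1.001 to 171.4 RPKM with a median of 2.63 RPKM, and 37 reached 10 RPKM while 119 stayed at 2 RPKM or under. The 9930 coding genes that met the same minimum had a median of 8.46 RPKM. Of all lincRNA rows 8.9% met that minimum, against 59.0% of protein-coding rows. Together the 299 lincRNAs made up 0.292 to 0.556% of the summed RPKM of a library. The most abundant was FLJ20021, a transcript on chromosome 4, with a mean of 171.4 RPKM. It was followed by CTB-31O20.2 (45.2 RPKM), RP3-395M20.12 (42.0 RPKM), EPB41L4A-AS1 (38.9 RPKM) and TP53TG1 (38.0 RPKM). Values of the same lincRNAs in replicate libraries correlated at 0.857 to 0.937 in RNA-seq on the log2 scale.

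The label "intergenic" held for most of the lincRNAs that could be placed. RefSeq positions (GRCh38.p14) were found by symbol for 174 of the 299 lincRNAs (58.2%), which is too few to check length or composition over the whole set. RefSeq listed 166 of them as long noncoding RNA, 4 as protein coding (C17orf100, FAM83H-AS1 under its present name IQANK1, ZNF883 and C14orf132), 2 as transcribed pseudogenes, RNU11 as a small nuclear RNA of the minor spliceosome, and RMRP as the RNA of RNase MRP. The interval of 42 of the 174 (24.1%) overlapped that of a protein-coding gene. The authors' use of strand in counting is not given in the sources used here, so reads of these lincRNAs and of the overlapping or antisense gene may have been mixed. Names ending in DT were carried by 63 of the 299.

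In untreated cells the lincRNAs higher in AI than in AD included FLJ20021, CRNDE, PCCA-DT and CDC37L1-DT, and those lower in AI included MIR210HG and LINC01976. A gene was called when the limma adjusted p for the difference in log2(RPKM + 0.5) was under 0.05 in a fit of all 12 libraries and 14227 genes. Of the 299 lincRNAs 50 were higher and 33 lower in AI, 27.8% in all, beside 34.6% of all tested genes (22.2% higher and 12.4% lower). Their median log2 difference was 0.10, beside 0.13 over all genes tested. The count rests on the spread pooled over all 12 libraries: with the 4 untreated libraries alone it was 15 higher and 4 lower, beside 588 higher and 518 lower of all 14227 genes. That fit still called CRNDE, LINC00467, MIR210HG, EPB41L4A-AS1, LINC02870, LINC02967 and RP11-54O7.16, and no longer called FLJ20021, CDC37L1-DT, PCCA-DT, LINC01133, LINC00680 or LINC01976. In bulk RNA, fewer cells that express a gene and less RNA per cell cannot be told apart.

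FLJ20021 stood at 41.5 and 29.98 RPKM in untreated AD cells and at 127.24 and 87.82 RPKM in untreated AI cells. Both AI values were above both AD values, and the log2 difference was 1.57 (SE 0.189, limma adjusted p = 0.000283). CDC37L1-DT, divergent to the gene of a kinase co-chaperone, stood at 1.87 and 2.88 RPKM in AD and at 8.02 and 17.86 RPKM in AI (log2 difference 2.14, SE 0.387, limma adjusted p = 0.00259). Its AI replicates differed widely between themselves, but both lay above the AD replicates. PCCA-DT, divergent to a gene of propionate breakdown, stood at 4.78 and 7.18 RPKM in AD and at 17.52 and 24.75 RPKM in AI (log2 difference 1.74, SE 0.265). LINC01133 stood at 1.24 and 2.74 RPKM in AD and at 7.09 and 9.55 RPKM in AI (log2 difference 1.88, SE 0.316). The groups of both lincRNAs lay apart. Among the lower lincRNAs RP11-54O7.16 stood at 4.58 and 3.81 RPKM in AD and at 1.39 and 0.95 RPKM in AI (log2 difference -1.50, SE 0.27), and RP11-474O21.5 was listed at 0 in both AI libraries against 5.16 and 0.85 RPKM in AD.

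After mock transfection most called lincRNAs were lower in AI than in AD. LINC00680, LINC02870 and BAIAP2-DT were among the largest falls, and LINC00115, CTB-31O20.2 and MIR99AHG among the largest rises. Of the 299 lincRNAs 36 were higher and 121 lower in AI, 52.5% in all, beside 55.7% of all tested genes (12.2% higher and 43.5% lower). Their median log2 difference was -0.51, beside -0.41 over all genes. This split depended on the scaling. Under trimmed-mean scaling the counts were 65 higher and 89 lower, and under quantile normalization 76 higher and 72 lower, so the higher share of the calls went from 22.9% to 42.2% and 51.4%. The median of all genes moved from -0.41 to -0.03 and 0.02, and changes here are best read relative to that shift. In untreated cells the same scalings gave 38 higher and 38 lower, and 42 higher and 38 lower, against 60.2% of calls higher in the deposited values.

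BAIAP2-DT, divergent to the gene of the actin regulator BAIAP2, stood at 21.01 and 22.24 RPKM in AD mock cells and at 1.95 and 1.74 RPKM in AI mock cells. The groups were far apart, and the log2 difference was -3.24 (SE 0.215, limma adjusted p = 2.73e-06). LINC00115, a lincRNA on chromosome 1, showed the reverse, with 1.74 and 1.77 RPKM in AD and 21.79 and 21.34 RPKM in AI (log2 difference 3.29, SE 0.166, limma adjusted p = 6.51e-07). In untreated cells it stood at 5.01 and 4.15 RPKM in AD and 3.86 and 3.41 RPKM in AI, with no call. CTB-31O20.2, the lincRNA with the next highest mean after FLJ20021, stood at 16.49 and 18.46 RPKM in AD mock cells and at 93.08 and 91.47 RPKM in AI mock cells (log2 difference 2.37, SE 0.244). Its untreated values overlapped between AD (30.41 and 16.72 RPKM) and AI (21.38 and 16.01 RPKM). LINC03072 fell from 11.27 and 10.53 RPKM in AD to 1.0 and 1.08 RPKM in AI mock cells (log2 difference -2.89, SE 0.174). ENSG00000273473 was listed at 0 in both AI mock libraries against 6.57 and 7.57 RPKM in AD. EPIC1, a lincRNA reported to bind MYC, stood at 0.4 and 0.41 RPKM in AD mock cells and at 3.69 and 3.49 RPKM in AI mock cells (log2 difference 2.18, SE 0.434). Its groups lay apart after transfection and overlapped in untreated cells. RP11-1055B8.9 stood at 1.06 and 1.19 RPKM in AD and at 17.05 and 21.2 RPKM in AI mock cells (log2 difference 3.59, SE 0.409). URB1-AS1, also among the most abundant, had no call and overlapping untreated groups (42.29 and 15.32 RPKM in AD, 39.41 and 19.29 RPKM in AI).

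**Figure D1:**
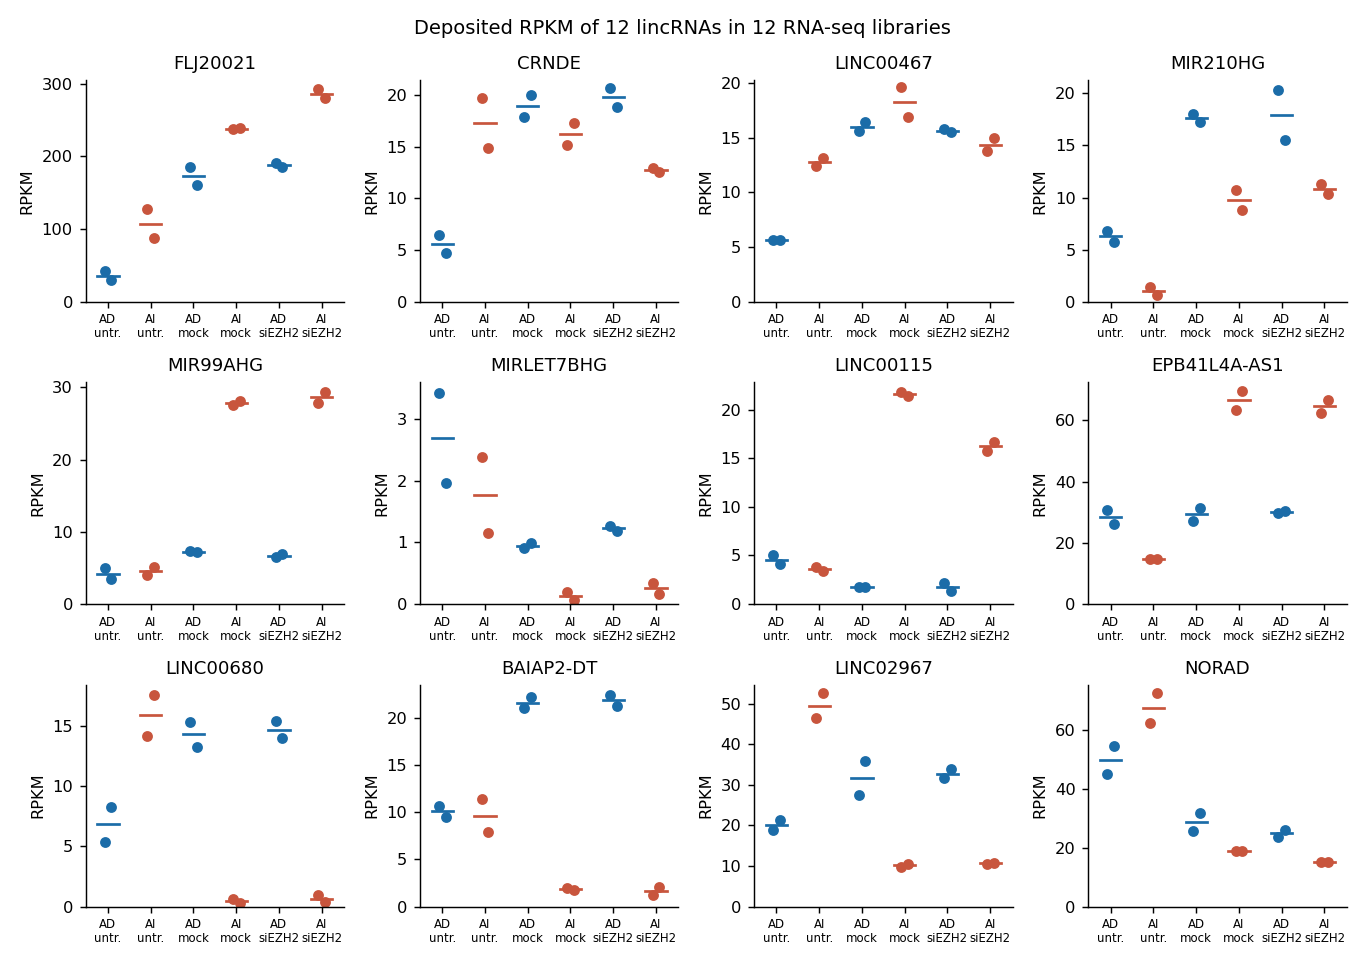
Deposited RPKM of 12 lincRNAs in the 12 RNA-seq libraries, with a linear axis from 0 for each, AD in blue and AI in red. Points are single libraries and bars the mean of 2. In the mock and siEZH2 groups the AI points of MIR99AHG, LINC00115 and EPB41L4A-AS1 lie above those of AD and the AI points of LINC00680, BAIAP2-DT and LINC02967 below them, while the untreated groups differ less or the other way.

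The libraries labelled siEZH2, which share no library with the mock comparison, gave much the same picture of AI against AD. Of the 299 lincRNAs 45 were higher and 130 lower in AI, 58.5% in all, beside 57.7% of all tested genes (10.6% higher and 47.1% lower). Trimmed-mean scaling gave 62 higher and 79 lower and quantile normalization 74 higher and 63 lower. Both counts fell whichever of the compared libraries was left out, the higher count most without the second AI siEZH2 library. Both comparisons called 31 lincRNAs higher and 103 lower, and none in opposite directions. Over all 14227 tested genes both called 1224 higher and 5614 lower, and 8 in opposite directions. For LINC00115 the values were 2.16 and 1.4 RPKM in AD and 15.78 and 16.7 RPKM in AI (log2 difference 2.90, SE 0.166), and for BAIAP2-DT they were 22.46 and 21.28 RPKM in AD and 1.18 and 2.08 RPKM in AI (log2 difference -3.43, SE 0.215).

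**Figure D2:**
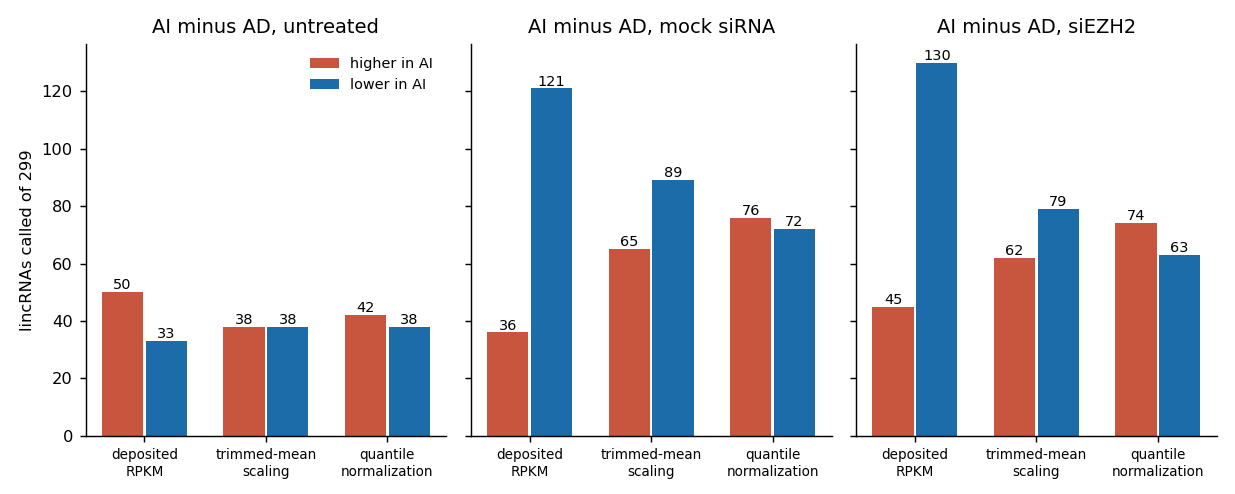
Number of the 299 lincRNAs called higher (red) or lower (blue) in AI than in AD, by state and by scaling of the RPKM values, with a count axis from 0. In the mock and siEZH2 panels the lower bars (121 and 130) exceed the higher bars (36 and 45) in the deposited values, and under quantile normalization the higher bars (76 and 74) exceed the lower ones (72 and 63).

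Some lincRNAs host microRNAs, and for these the sequences inside them are shown because hosts of the same seed family had unlike values. A microRNA recognises targets mainly through its seed, bases 2 to 8, printed in capitals. The mature sequences are from RefSeq (GRCh38.p14). MIR99AHG holds miR-99a (chr21:16539101-16539122, plus strand), let-7c (chr21:16539838-16539859, plus strand) and miR-125b (chr21:16590253-16590274, plus strand). MIRLET7BHG holds let-7a (chr22:46112752-46112773, plus strand) and let-7b (chr22:46113691-46113712, plus strand), MIR4458HG holds miR-4458 (chr5:8460933-8460951, plus strand), MIR210HG holds miR-210 (chr11:568112-568133, minus strand), and MIR200CHG holds miR-200c (chr12:6963742-6963764, plus strand) and miR-141 (chr12:6964155-6964176, plus strand).
hsa-let-7c-5p: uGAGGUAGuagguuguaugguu
hsa-let-7a-5p: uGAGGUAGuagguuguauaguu
hsa-let-7b-5p: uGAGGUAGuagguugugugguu
hsa-miR-4458: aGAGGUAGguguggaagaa
hsa-miR-99a-5p: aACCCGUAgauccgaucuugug
hsa-miR-125b-5p: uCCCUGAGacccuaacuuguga
hsa-miR-210-3p: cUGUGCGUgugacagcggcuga
hsa-miR-200c-3p: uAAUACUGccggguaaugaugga
hsa-miR-141-3p: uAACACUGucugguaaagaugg
The first 4 share the seed GAGGUAG of the let-7 family, although their hosts lie on 3 chromosomes. The libraries measured the host transcripts and not the mature microRNAs.

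MIR99AHG, the host of let-7c, stood at 7.35 and 7.21 RPKM in AD mock cells and at 27.6 and 28.14 RPKM in AI mock cells. The groups lay far apart (log2 difference 1.87, SE 0.162, limma adjusted p = 1.26e-05), and the siEZH2 libraries gave 6.47 and 6.89 RPKM in AD and 27.85 and 29.41 RPKM in AI (log2 difference 2.02). In untreated cells AD (4.93 and 3.43 RPKM) and AI (3.98 and 5.09 RPKM) overlapped. MIRLET7BHG, the host of let-7a and let-7b, was lower in AI mock cells, with 0.91 and 0.99 RPKM in AD and 0.19 and 0.07 RPKM in AI (log2 difference -1.21, SE 0.297, limma adjusted p = 0.00637), a call that quantile normalization ended (-0.61). The third let-7-like host, MIR4458HG, stood at 3.2 and 3.04 RPKM in AD and 5.18 and 5.67 RPKM in AI mock cells and was not called (limma adjusted p = 0.0728).

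MIR210HG, whose microRNA is known for its induction in hypoxia, had the largest fall in untreated cells with values above 0 in every library. It stood at 6.77 and 5.75 RPKM in AD and at 1.36 and 0.61 RPKM in AI, and the groups lay apart (log2 difference -2.23, SE 0.231, limma adjusted p = 0.000121). After mock transfection it stood at 18.03 and 17.26 RPKM in AD and 10.73 and 8.78 RPKM in AI (log2 difference -0.83, SE 0.231, limma adjusted p = 0.0123), a call that both scalings ended (-0.42 under quantile normalization and -0.36 under trimmed-mean scaling). The fall was larger in untreated than in mock cells by a test of the difference itself (mock less untreated 1.40). MIR200CHG, the host of epithelial microRNAs, varied more between replicates than between groups: 20.83 and 6.13 RPKM in untreated AD against 14.36 and 4.13 RPKM in untreated AI. MIR4453HG and MIR193BHG, the other hosts found, had no call in the comparisons of AI with AD. Of the 7 hosts none was called higher and 1 lower in untreated AI cells, and 1 was called higher and 2 lower in mock and in siEZH2 cells. Of all tested genes 22.2% were higher and 12.4% lower in untreated, 12.2 and 43.5% in mock, and 10.6 and 47.1% in siEZH2 cells. With 7 hosts these counts cannot be told apart from those shares.

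The lincRNAs with other reported roles each had a pattern of their own. They were the members found among 5 names of snoRNA hosts (1), 17 of transcripts with a small protein later described (1), 11 of reported PRC2 partners (1), 8 linked to p53 (1), 4 of RNA decoys (1) and 17 of prostate lincRNAs (2), and no name of a list on immunity was found. EPB41L4A-AS1, a host of snoRNAs, stood at 30.71 and 26.1 RPKM in untreated AD and at 14.74 and 14.76 RPKM in untreated AI (log2 difference -0.92, SE 0.116, limma adjusted p = 0.000375). Mock-transfected cells had the reverse order, with 27.16 and 31.46 RPKM in AD and 63.4 and 69.73 RPKM in AI (log2 difference 1.17, SE 0.116, limma adjusted p = 2.78e-05). The groups lay apart in both states. NORAD (LINC00657 in the table), which binds Pumilio proteins and is linked to genome stability, stood at 45.09 and 54.52 RPKM in untreated AD and 62.56 and 72.67 RPKM in untreated AI (log2 difference 0.44, SE 0.138, limma adjusted p = 0.0339). After mock transfection it stood at 25.87 and 32.03 RPKM in AD and 19.01 and 18.91 RPKM in AI (log2 difference -0.59, SE 0.138, limma adjusted p = 0.00492). Both directions held under both scalings, but neither call did: under quantile normalization the values were 0.28 untreated and -0.35 mock, and under trimmed-mean scaling 0.26 and -0.11. The untreated call was also lost with the untreated libraries alone and with no filter on low values. TP53TG1, a lincRNA linked to p53, was called higher in AI in both states, with 18.03 and 12.53 RPKM against 39.98 and 19.32 RPKM in untreated cells (log2 difference 0.87, SE 0.284) and 26.64 and 22.28 RPKM against 69.29 and 66.31 RPKM after mock transfection (log2 difference 1.46, SE 0.284, limma adjusted p = 0.00174). Its untreated call was lost with the untreated libraries alone, with no filter, under both scalings and with either the second AD or the first AI library left out, and its untreated difference ran from 0.35 to 1.38 with 1 library left out.

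CRNDE has been reported as a partner of PRC2 and lies beside the homeobox gene IRX5. It stood at 6.43 and 4.67 RPKM in untreated AD cells and at 19.78 and 14.88 RPKM in untreated AI cells, with no overlap (log2 difference 1.56, SE 0.173, limma adjusted p = 0.000177). After mock transfection AD (17.89 and 20.08 RPKM) and AI (15.21 and 17.29 RPKM) were close (log2 difference -0.22, limma adjusted p = 0.309). IRX5 went with it in untreated cells (log2 difference 1.15) but fell after mock transfection, from 6.46 and 7.11 RPKM in AD to 0.86 and 0.72 RPKM in AI (log2 difference -2.50). LINC00467, for which a small protein was later described, stood at 5.65 RPKM in both untreated AD libraries and at 12.37 and 13.17 RPKM in untreated AI (log2 difference 1.11, SE 0.108, limma adjusted p = 8.71e-05), and was not called after mock transfection. SCHLAP1, a lincRNA known from aggressive prostate cancer, stood at 5.89 and 8.46 RPKM in AD and 11.43 and 11.45 RPKM in AI mock cells (log2 difference 0.66, SE 0.184, limma adjusted p = 0.0124) and was not called in untreated cells. Leaving out 1 library could end its mock call, and its mock difference then ran from 0.41 to 0.9. LINC00844, another prostate lincRNA, had no call.

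Like many of all tested genes, some lincRNAs differed between AI and AD in opposite directions in the untreated and the mock libraries. These comparisons share no library. Of the 299 lincRNAs 5 were called higher and 18 lower in both, while 20 were called higher in untreated and lower in mock cells and 8 the reverse. Over all 14227 tested genes the same counts were 515, 1053, 1378 and 202. The untreated calls in these counts rest on the pooled spread, and the untreated libraries alone called only 15 lincRNAs higher and 4 lower. A coefficient for the difference of the differences called 28 lincRNAs higher and 103 lower in the mock than in the untreated comparison, 43.8% in all, beside 50.2% of all tested genes (8.99% higher and 41.2% lower). Under trimmed-mean scaling the counts were 44 higher and 68 lower, and under quantile normalization 50 and 56.

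LINC00680 stood at 5.36 and 8.27 RPKM in untreated AD and at 14.16 and 17.55 RPKM in untreated AI (log2 difference 1.18, SE 0.285, limma adjusted p = 0.0107). After mock transfection it stood at 15.34 and 13.23 RPKM in AD and at 0.64 and 0.29 RPKM in AI (log2 difference -3.96, SE 0.285, limma adjusted p = 4.27e-06). The groups lay apart in both states, in opposite order, and the difference of the differences was -5.14. LINC02870 had the same orders, with 2.81 and 2.62 RPKM against 8.42 and 9.69 RPKM in untreated cells and 6.76 and 7.51 RPKM against 0.33 and 0.27 RPKM after mock transfection. Its log2 differences were 1.57 and -3.25 (SE 0.14 for each). LINC02967, a far more abundant transcript of chromosome 20, stood at 18.92 and 21.28 RPKM against 46.39 and 52.51 RPKM in untreated cells (log2 difference 1.28, SE 0.138), and at 27.58 and 35.88 RPKM against 9.76 and 10.61 RPKM after mock transfection (log2 difference -1.58, SE 0.138). LINC01976 showed the reverse order, with 2.78 and 4.78 RPKM against 0.87 and 0.32 RPKM in untreated cells (log2 difference -1.97, SE 0.287) and 6.98 and 4.99 RPKM against 16.72 and 17.31 RPKM after mock transfection (log2 difference 1.45, SE 0.287). RP3-395M20.12, among the most abundant, went from -0.98 in untreated to 0.62 in mock cells.

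**Figure D3:**
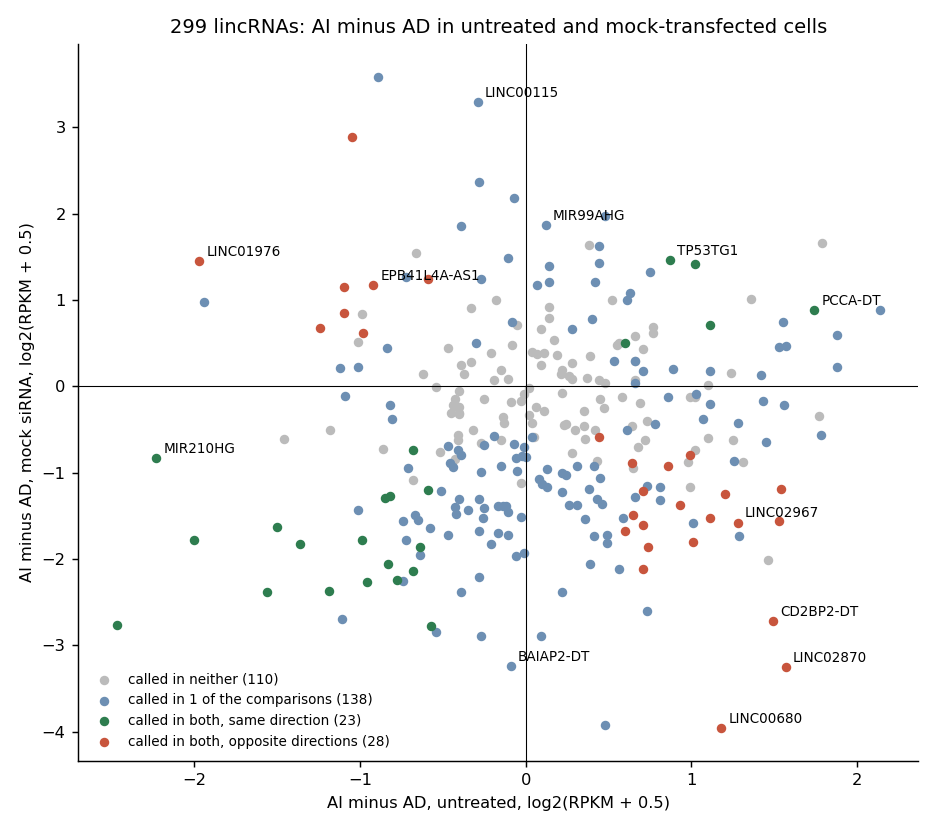
Log2 difference between AI and AD of the 299 lincRNAs, untreated cells on the horizontal and mock-transfected cells on the vertical axis, in log2(RPKM + 0.5), with 1 point a lincRNA. The 28 red points are called in both comparisons in opposite directions, such as LINC00680 at 1.18 and -3.96, and the 23 green points in the same direction.

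Promoters in RefSeq (GRCh38.p14, a window that ends 50 bases after the start) were found for 127 of the lincRNAs. They were rich in G and C, with a median of 68.0% (71.5% for 44 with a DT name and 65.3% for the other 83) beside 58.3% over 27305 promoters of all genes, and held a median of 27 CG pairs beside 14. Motifs were searched on both strands and may overlap. The E-box CACGTG was in 16 of 127 promoters (12.6%, beside 7.43% of all), the TATA box TATAAA in 9 (7.09%, beside 12%), the amino acid response element TGATGNAA in 5 (3.94%, beside 3.67%) and the full palindromic androgen response element in 0 (0.00366% of all). These matches are descriptions of letters and not sites. The promoters of all genes were not matched to these lincRNAs by RNA level or by share of G and C. As examples of lincRNAs with large differences, the promoters of MIR99AHG (chr21:16070238-16070537, plus strand), CD2BP2-DT (chr16:30355184-30355483, plus strand), LINC01976 (chr17:43938011-43938310, plus strand) and BAIAP2-DT (chr17:81034670-81034969, minus strand) are given with motif matches in capitals.
MIR99AHG: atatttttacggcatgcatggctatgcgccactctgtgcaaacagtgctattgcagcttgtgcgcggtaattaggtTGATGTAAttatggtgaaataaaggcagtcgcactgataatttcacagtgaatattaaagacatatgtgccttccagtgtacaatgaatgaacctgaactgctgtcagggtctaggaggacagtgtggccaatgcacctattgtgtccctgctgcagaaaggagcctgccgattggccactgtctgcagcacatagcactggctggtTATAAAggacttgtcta
CD2BP2-DT: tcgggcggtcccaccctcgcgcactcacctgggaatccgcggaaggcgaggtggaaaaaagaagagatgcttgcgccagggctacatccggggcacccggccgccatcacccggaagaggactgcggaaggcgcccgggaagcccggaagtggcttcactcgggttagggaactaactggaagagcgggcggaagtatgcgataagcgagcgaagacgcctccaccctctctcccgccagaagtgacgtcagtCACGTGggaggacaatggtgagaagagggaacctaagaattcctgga
LINC01976: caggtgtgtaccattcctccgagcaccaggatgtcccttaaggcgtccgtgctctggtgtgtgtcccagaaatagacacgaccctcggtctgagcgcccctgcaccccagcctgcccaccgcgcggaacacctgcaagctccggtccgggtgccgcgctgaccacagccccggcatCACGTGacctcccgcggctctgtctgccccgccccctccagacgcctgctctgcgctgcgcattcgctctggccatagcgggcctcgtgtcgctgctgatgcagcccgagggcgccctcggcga
BAIAP2-DT: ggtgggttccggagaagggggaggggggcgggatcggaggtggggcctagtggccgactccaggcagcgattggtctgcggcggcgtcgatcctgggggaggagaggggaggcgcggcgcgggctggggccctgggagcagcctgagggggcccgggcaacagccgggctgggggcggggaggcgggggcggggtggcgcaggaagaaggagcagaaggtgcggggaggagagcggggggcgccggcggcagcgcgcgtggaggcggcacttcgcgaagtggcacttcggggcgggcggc
MIR99AHG had a low share of G and C for the set (46.0%), a TGATGNAA match 174 bases before the start and a TATAAA match 33 bases after it. CD2BP2-DT held CACGTG 3 bases after its start and LINC01976 held it 74 bases before its start. BAIAP2-DT, with 77.3% G and C, held none of the 4 motifs.

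Divergent transcripts could be set beside the coding gene in their name, here called the partner. For 62 of the 63 the partner was tested. The divergent transcript had the lower mean level in 45 of 62 pairs, with medians of 2.99 and 7.06 RPKM. In untreated cells 14 were called higher and 1 lower, beside 17 partners higher and 9 lower, and of 10 pairs with both called 8 went the same way. In mock cells 5 were higher and 27 lower, beside 16 and 28 partners, and of 24 pairs with both called 19 went the same way. Of all tested genes 22.2% were called higher in untreated and 43.5% lower in mock cells, and the part of that common direction in the pairs was not tested. Across the 62 pairs, which share libraries and cannot be taken as replicates, Pearson's r between the log2 differences was 0.43 in untreated and 0.19 in mock cells (Spearman's rho 0.38 and 0.17). CKAP2-DT and its partner CKAP2, a gene of the mitotic spindle, rose together in untreated AI cells (log2 differences 1.53 and 1.37), as did CDC37L1-DT and CDC37L1 (2.14 and 1.61) and GTSE1-DT and GTSE1 (1.28 and 0.80). With the untreated libraries alone the calls of CKAP2-DT, CDC37L1-DT and GTSE1-DT were lost.

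Other pairs differed in direction or in size. HK2-DT is divergent to HK2, which encodes the glycolytic enzyme hexokinase. In untreated cells HK2-DT stood at 2.54 and 1.52 RPKM in AD and 4.05 and 3.24 RPKM in AI (log2 difference 0.74, SE 0.228, limma adjusted p = 0.0327, a call lost with the untreated libraries alone and under other settings), while HK2 fell from 19.12 and 21.78 RPKM to 6.02 and 5.43 RPKM (log2 difference -1.75). After mock transfection HK2-DT fell from 1.8 and 1.75 RPKM in AD to 0.08 and 0.18 RPKM in AI (log2 difference -1.86, SE 0.228, limma adjusted p = 0.000104), while HK2 rose from 19.32 and 21.34 RPKM to 32.81 and 32.94 RPKM (log2 difference 0.68). The partners thus differed in opposite directions in both states. INSIG1, a sterol-regulated gene, rose from 29.8 and 36.75 RPKM in AD to 363.6 and 393.94 RPKM in AI mock cells (log2 difference 3.50), while INSIG1-DT, whose interval overlaps it, stood at 4.57 and 7.07 RPKM in AD and 5.22 and 6.6 RPKM in AI (log2 difference 0.04, limma adjusted p = 0.888). Over glucose uptake and glycolysis, SLC2A1 and PFKP had untreated log2 differences of -2.49 and -2.51. SLC2A1-DT and PFKP-DT, with low means of 2.07 and 1.71 RPKM, had -0.46 and -0.74 and were not called. After mock transfection PFKP-DT and PFKP were both called lower (-1.56 and -0.42), while SLC2A1-DT was called lower (-0.89) and SLC2A1 higher (0.55). CENATAC-DT fell after mock transfection (-1.81) while its partner rose (0.60), and FAM193B-DT rose (1.21) while FAM193B fell (-0.98). BAIAP2-DT and CD2BP2-DT fell after mock transfection as their partners did, but by more (-3.24 beside -0.69 for BAIAP2, and -2.72 beside -0.88 for CD2BP2).

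**Figure D4:**
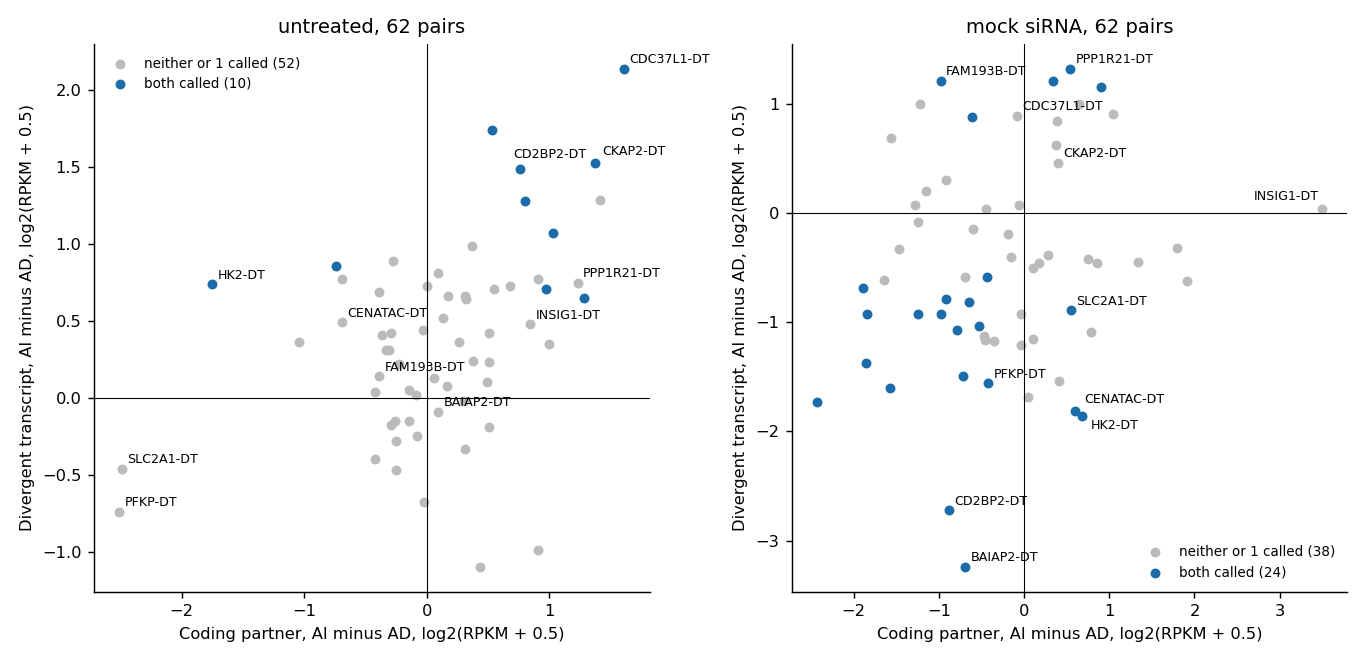
Log2 difference between AI and AD of 62 divergent transcripts (vertical) and their coding partners (horizontal) in untreated (left) and mock-transfected cells (right), in log2(RPKM + 0.5), with 1 point a pair and blue points where both were called. CKAP2-DT and CDC37L1-DT lie with their partners in the upper right of the untreated panel, and HK2-DT lies in the upper left there and in the lower right of the mock panel.

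The nearest coding gene was also taken for the wider set, in which many of the pairs above recur. Of 118 lincRNAs with a coding gene within 10 kb, 107 had a tested neighbour, and across these pairs r was 0.36 in untreated and 0.19 in mock cells. By start and strand 57 of the 118 were divergent to that gene. For the 51 other tested pairs, some without a known strand, r was 0.3 and 0.29 (Spearman's rho 0.18 and 0.29). The log2 differences of these 51 pairs had the same sign in 25 pairs in untreated and 33 in mock cells. For 43 tested pairs farther apart r was 0.21 and -0.09. LINC02718, which overlaps the gene SVIP, stood at 0.56 and 0.72 RPKM in AD and 4.32 and 3.62 RPKM in AI mock cells (log2 difference 1.97, SE 0.316, limma adjusted p = 0.000553), while SVIP had a log2 difference of 0.90. Whether the counting used strand is not given in the sources used here, so which of the overlapping transcripts gave these reads cannot be told apart.

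Between siEZH2 and mock libraries few lincRNAs moved. In AD none of the 299 was called by limma, beside 0.0141% of all tested genes, and 20 lincRNAs and 544 genes had an unadjusted p under 0.05. In AI 1 was higher and 2 lower, 1.0% in all, beside 1.46% of all tested genes (0.0703% higher and 1.39% lower). LINC02970 stood at 0.0 and 0.13 RPKM after mock and 1.23 and 0.85 RPKM in the libraries labelled siEZH2, LIPT2-AS1 at 2.42 and 1.73 RPKM and 0.93 and 0.8 RPKM, and LINC01106 at 0.45 and 0.42 RPKM and 0.06 RPKM in both. The groups of each lay apart, but these are low values, and leaving out each of the 4 libraries in turn ended all 3 calls.

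H3K27me3 was rare at the lincRNAs that could be placed. A deposited peak within the gene or 2 kb on either side was found for 10 and 15 of 174 lincRNAs in the AD lists and for 10 and 14 in the AI lists (5.75, 8.62, 5.75 and 8.05%). Among 12465 tested genes the shares were 8.66, 9.36, 11.5 and 15.7%, and among 1449 lincRNA rows under 1 RPKM 30.2 to 32.8%. The level limit itself split these rows from the lincRNAs. H3K27me3 is a repressive mark, so that contrast cannot be told apart from the choice by RNA level. Peaks were called by the authors separately in each sample, their number ran from 11933 to 124079 between lists, and lincRNA genes were short (median 5254 bp), so shares at longer genes are not like for like. In windows of equal length, 2 kb on either side of the start, 7 of 127 lincRNAs had a peak in any H3K27me3 list (5.51%), beside 9.12% of tested genes, and 14 had an EZH2 peak (11%), beside 17.0%. EZH2 peaks lay within 2 kb of 47, 16 and 13 of the 174 (27, 9.2 and 7.47%) in the lists of AD replicates 1 and 2 and of AI, beside 54.6, 27.1 and 24.1% of tested genes.

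**Figure D5:**
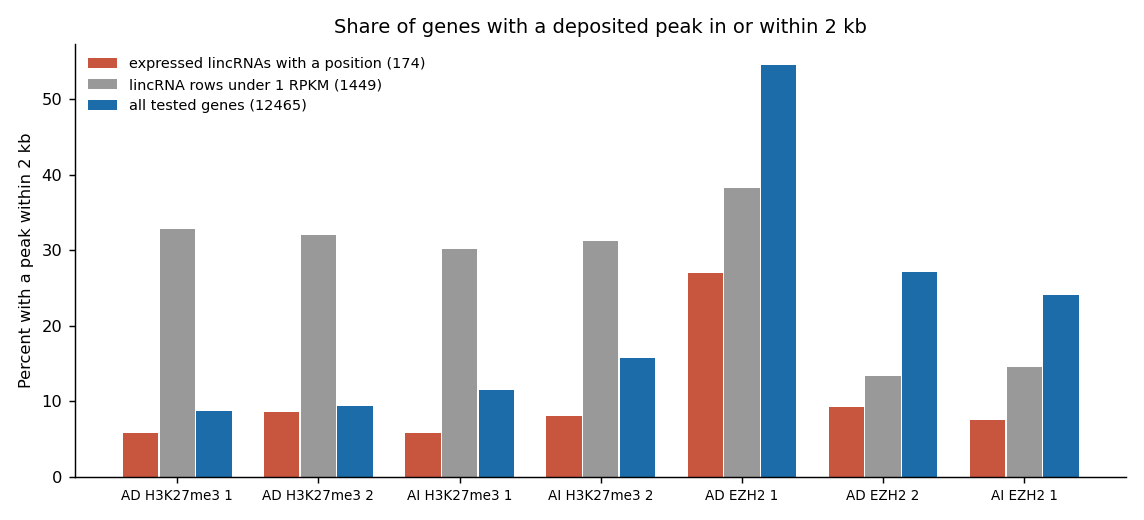
Percent of genes with a deposited peak in the gene or within 2 kb, for each of 7 peak lists, with an axis from 0: 174 lincRNAs (red), 1449 lincRNA rows under 1 RPKM (grey) and 12465 tested genes (blue). In each H3K27me3 list the red bar (5.75 to 8.62%) is far below the grey bar (30.2 to 32.8%). The red and grey sets were split by RNA level itself.

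The lincRNAs with the mark in all 4 H3K27me3 lists were RNF32-DT (LINC01006 in the table), LINC02503 and LINC03060. They were 1.72% of the 174 lincRNAs, beside 4.81% of the 12465 tested genes. The mark was in both AD lists and neither AI list for LINC02198, LINC00898, LINC02987 and LINC02063 (2.3%, beside 0.393% of tested genes). It was in both AI lists and neither AD list for ZNF407-AS1 (0.575%, beside 2.42%). LINC02063 was the most covered of the 4 marked in the AD lists only, with 54.8 and 49.4% of its interval under peaks there. Its RNA stood at 0.2 and 0.0 RPKM in untreated AD and 0.29 and 0.0 RPKM in untreated AI. Its mean over all 12 libraries was 1.11 RPKM, so it met the level limit only through the transfected libraries. LINC02198 stood at 0.86 and 0.93 RPKM in untreated AD and 2.08 and 1.52 RPKM in untreated AI (log2 difference 0.71, SE 0.21, limma adjusted p = 0.0267, a call lost with the untreated libraries alone). LINC00898 was not called in untreated cells (-0.43) and was lower in AI mock cells (-1.4, limma adjusted p = 0.00288). LINC02987 had 0.64 in untreated and -0.89 in mock cells (limma adjusted p = 0.0172 and 0.00159). Quantile normalization ended both mock calls, and the untreated libraries alone did not call LINC02987. A difference above 0 was found for 3 of the 4 in untreated and 2 in mock cells. Among 49 tested genes marked alike the counts were 31 and 23. ZNF407-AS1 stood at 3.43 and 3.32 RPKM in untreated AD and 5.29 and 5.43 RPKM in untreated AI, and at 2.29 and 2.79 RPKM against 0.45 RPKM in both AI libraries after mock transfection (log2 difference -1.67, SE 0.149). BAIAP2-DT had peaks in the second AD list (21.3% of its interval) and in both AI lists (38.1 and 23.4%).

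In the EZH2 RIP no lincRNA and no gene was called by limma against IgG, 0.0% of 13667 tested genes in each of the 4 comparisons. With the replicate number as a block limma called 472 genes higher and 11 lower in AD, with 0 and 1 lincRNAs among them, and 1291 higher and 47 lower in AI, with 3 and 1 lincRNAs. An unadjusted p under 0.05 was found for 8 of 214 tested lincRNAs in AD and 26 in AI, beside 1383 and 2930 genes. The files give no read totals, but the IgG libraries were far sparser: 64 to 226 of the 284 lincRNAs were listed at 0 in an IgG library against 24 to 55 in an EZH2 library. The lowest value above 0 over all genes was 0.51 RPKM in the second AI IgG library and 0.01 RPKM in every EZH2 library. Values of the lincRNAs in replicate EZH2 libraries correlated at 0.844 in AD and 0.811 in AI, and those in IgG libraries at 0.559 and 0.46.

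LINC02718 had high RIP values for its RNA level, with 17.41 and 26.99 RPKM in EZH2 and 0.0 and 11.6 RPKM in IgG libraries of AD, and 42.89 and 43.2 RPKM against 3.51 and 0.0 RPKM in AI. Both EZH2 values lay above both IgG values in each cell state, and the log2 differences were 3.17 (SE 1.39, limma adjusted p = 0.484) and 4.94 (SE 1.39, limma adjusted p = 0.118). It was named after its values were seen. RMRP, the catalytic RNA of RNase MRP, lay the other way, with 19.23 and 58.74 RPKM in EZH2 and 240.93 and 332.05 RPKM in IgG libraries of AD, and 32.81 and 72.11 RPKM against 389.29 and 824.91 RPKM in AI. It too was named after its values were seen. CRNDE, the reported PRC2 partner, stood at 0.78 and 0.99 RPKM in EZH2 and 5.14 and 0.69 RPKM in IgG libraries of AD, and at 1.05 and 3.04 RPKM against 6.23 and 0.0 RPKM in AI, so its groups overlapped in both states. SCHLAP1 had EZH2 values below its IgG values without a call, at 20.76 and 12.15 RPKM against 59.95 and 22.16 RPKM in AD and 26.63 and 17.54 RPKM against 52.22 and 42.76 RPKM in AI, and MIR99AHG lay the same way at 13.62 and 11.57 RPKM against 29.07 and 18.05 RPKM in AD. Without the first AI IgG library limma called 4 lincRNAs higher and 5 lower in EZH2 than in IgG libraries of AI, beside 670 and 63 of 13463 genes. Set against the untreated RNA level, which was normalized in a separate table so that no test was made, the lincRNAs had a median log2 ratio of EZH2 RIP to RNA of -1.21 in AD and -1.31 in AI, beside -1.07 and -1.11 for 10849 genes at 1 RPKM or more. The ratio was above 0 for 37 and 38 of the 284 lincRNAs (13.0 and 13.4%), beside 26.4 and 26.1% of those genes. Those genes were not matched to the lincRNAs by RNA level. The median lincRNA stood at 0.597 RPKM in AD and 0.738 RPKM in AI in the EZH2 RIP, near the 0.5 added before the ratio.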

How the data were processed

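RNA-seq of 12 libraries, RIP of 8 libraries and 7 ChIP peak lists were used, out of 34 samples, and the ChIP inputs were not analysed here. The authors deposited RPKM values, rounded to 2 decimals, and peak lists with a score per peak that is the authors' own. Per the submitters' processing notes, which give no versions or roles, RNA-seq used cutadapt, RNA-seq and RIP used TopHat2 and edgeR, ChIP used cutadapt and Bowtie2, and the build was GRCh38. Annotation, read counter and strand setting: not given in the sources used here. RPKM holds no read totals, so the depth behind a value is unknown and no counting interval is given, and 2 libraries a group limit the precision. The design had allowed for counts, so no count test was run.

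Groups came from the sample titles. Differences were tested with limma 3.58.1 (limma-trend, R 4.3.3) on log2(RPKM + 0.5), fitting 1 mean per group to all libraries of the assay, for 14227 RNA-seq and 13667 RIP genes with 0.5 RPKM or more in at least 2 libraries, and p-values were adjusted by Benjamini-Hochberg over all tested genes (called under 0.05). This scale understates changes of low genes. The test was tried on simulated data. Peaks were joined to RefSeq intervals (GRCh38.p14), which were matched by symbol or synonym, and nearest coding genes were taken within 10 kb. Sums and figures used Python 3.11.15 with pandas 2.3.3 and numpy 2.4.6.

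The lincRNAs, role lists and rules were chosen with earlier results of these data known. Named genes were EZH2, the 10 lincRNAs of highest mean (of which 1 is not reported here), the 8 largest rises and 8 largest falls of called lincRNAs per RNA comparison with groups that do not overlap (RIP: 8 and 4), those of the role lists, 3 on each side of the level limit, up to 6 with H3K27me3 in AD or AI lists only, and up to 8 called lincRNAs with a coding gene within 10 kb in the untreated and the mock comparison. Genes named besides these, mostly divergent pairs, were chosen after their values were seen. Alternatives were the pseudocounts 0.1 and 1, no filter on low values, trimmed-mean scaling (30% of log ratios and 5% of levels trimmed at either end), quantile normalization, the compared libraries alone, the replicate number as a block, each library left out, and other peak definitions. The windows around the start were chosen after seeing the data.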

Additional observations from a re-analysis of the deposited data

Results flagged for a closer look

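The difference between AI and AD was not the same in the untreated and the mock libraries for the lincRNAs below, by a test of the difference of the differences in limma (mock less untreated, on the log2(RPKM + 0.5) scale). It was higher in mock for 28 lincRNAs and lower for 103, 43.8% of them beside 50.2% of all tested genes (8.99% higher and 41.2% lower), whose median was -0.54. Under trimmed-mean scaling the counts were 44 and 68, and under quantile normalization 50 and 56. The named ones follow with their value. Transfection and experiment cannot be told apart in it, the share of mitochondrial RNA moved with it (18.4 to 33.4% in untreated and 2.1 to 4.07% in transfected libraries) and its part was not tested. Where a lincRNA was listed at 0 in a group the value depends on the added 0.5.

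Among lincRNAs called higher in untreated and lower in mock AI cells, the values were -5.14 for LINC00680, -4.82 for LINC02870 (C10orf91), -4.21 for CD2BP2-DT (RP11-347C12.10), -3.09 for BCAN-AS1 (RP11-284F21.9) and -2.86 for LINC02967 (RP4-568C11.4). LINC00235 had -2.83, HK2-DT (RP11-259N19.1) -2.59, ZNF407-AS1 (LINC00909) -2.27, LINC02987 (CTC-459F4.3) -1.53 and NORAD (LINC00657) -1.03. With the untreated libraries alone LINC02870, BCAN-AS1 and LINC02967 kept their untreated calls, and the others listed here lost them. Among lincRNAs called higher in untreated and not called in mock cells, FAM27C had -2.35, CRNDE -1.78, GTSE1-DT (GTSE1-AS1) -1.70, LINC00992 -1.66, LINC02983 (RP11-1275H24.1) -1.60, LINC01133 -1.29, LIPT2-AS1 (AP001372.2) -1.21, FLJ20021 -1.10 and LINC00467 -0.93. The untreated calls of GTSE1-DT, LINC01133, LIPT2-AS1 and FLJ20021 were lost with the untreated libraries alone.

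Among those called lower in mock and not called in untreated AI cells, ENSG00000273473 had -4.40, LINC02970 (WI2-87327B8.2) -3.33, BAIAP2-DT (BAIAP2-AS1) -3.15, ANK3-DT (RP11-131N11.4) -3.02 and LINC03072 (RP11-212P7.2) -2.98. The call of ANK3-DT was lost with no filter on low values, under both scalings and with any of 3 libraries left out, and its value ran from -3.75 to -2.29 with 1 library left out. CTD-2540B15.9 had -2.62, CENATAC-DT (RP11-110I1.12) -2.30, AP001059.6 -2.29, RP11-87C12.5 -1.93 and IQANK1 (FAM83H-AS1) -1.90. Smaller values were those of ST3GAL1-DT (RP11-629O1.2) at -1.22 and LINC01106 at -1.09. RP11-32B5.7 (-2.21) and VASH1-AS1 (RP11-488C13.5, -1.22) were lower in AI in both states and more so in mock cells.

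Among those with a higher value in mock cells, RP11-1055B8.9 had 4.48, LINC00115 3.58, CTB-31O20.2 2.65, EPIC1 (RP11-191L9.4) 2.25, RP11-47P18.1 2.24, MIR99AHG 1.75 and LINC02718 (RP11-266A24.1) 1.49, and each was called higher in mock and not called in untreated AI cells. LINC03047 (KB-1980E6.3) had 3.94, LINC01976 (RP11-527L4.2) 3.42, DCTN6-DT (RP11-51J9.5) 2.25, EPB41L4A-AS1 2.09 and RP3-395M20.12 1.61, and each was called lower in untreated and higher in mock AI cells. Of these only EPB41L4A-AS1 kept its untreated call with the untreated libraries alone. RP11-353N14.3 (2.93) was called lower in untreated cells only, and MIR210HG (1.40) was called lower in both states and less so in mock cells.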

How the results depend on the processing

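Of 160 pairs of a named lincRNA and a comparison in which it was called, 96 kept call and direction under every setting. The settings counted here include those with a library left out. Under quantile normalization 2 pairs changed direction: LINC02987 (CTC-459F4.3) in the siEZH2 comparison to 0.11 and LINC02983 (RP11-1275H24.1) in the same comparison to 0.20. Calls were lost for 34 with the compared libraries alone, 21 with no filter, 30 under quantile normalization, 25 under trimmed-mean scaling, 7 at a pseudocount of 0.1 and 3 at a pseudocount of 1. The cause was not tested, except that fewer libraries enter the first of these.

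Counts of lincRNAs higher and lower in AI moved as follows. Untreated libraries alone gave 15 and 4. Quantile normalization gave 76 and 72 for mock, 74 and 63 for siEZH2, and 50 and 56 for the difference of differences. Trimmed-mean scaling gave 65 higher for mock, 79 lower for siEZH2, and 44 and 68 for the difference of differences. For siEZH2 minus mock in AI the count was 0 higher and 0 lower with the libraries alone, with no filter, at a pseudocount of 1, under quantile normalization and under trimmed-mean scaling, and 5 lower at a pseudocount of 0.1. For the RIP difference of differences the libraries alone are all 8 RIP libraries, so that setting was not run.

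Same-numbered libraries did not deviate together throughout: the correlation of deviations was 0.701 between untreated AD and AI, -0.00442 to 0.13 for the other RNA-seq pairs and 0.0972 to 0.713 for the RIP pairs. The mitochondrial share went with the number in untreated cells too, at 18.4 and 19.6% in the first and 32.6 and 33.4% in the second libraries. The labels name no batch that the numbers share. With the replicate block limma called 1 lincRNA higher and 5 lower for siEZH2 minus mock in AI (19 and 352 of all genes), 0 and 1 for RIP in AD (472 and 11), and 3 and 1 for RIP in AI (1291 and 47).

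With each library left out in turn, the counts ran from 38 to 47 higher and 24 to 37 lower (untreated), 27 to 30 and 97 to 105 (mock), 28 to 41 and 102 to 114 (siEZH2), and 24 to 32 and 89 to 104 (difference of differences). For siEZH2 minus mock in AI they were 0 and 0. For RIP in AI they ran from 0 to 4 higher and 0 to 5 lower, the highest without the first AI IgG library. The EZH2 difference in AD ran from -0.16 to 0.02.

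Of 27 lincRNAs with an H3K27me3 peak in any list, 17 had one at or above the median score, 3 were covered over 50% of the interval, and 7 had one within 2 kb of the start. Of 58 with an EZH2 peak the counts were 38 for the gene alone, 32 at or above the median score, 0 over 50% covered and 14 at the start.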
